A study of Mus musculus with 2 samples.

Results

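Complement is a cascade of secreted proteins that marks microbes, dying cells and debris for uptake. In the classical pathway the recognition molecule C1q, built from A, B and C chains, activates the serine proteases C1r and C1s. These cleave C4 and C2 and so form an enzyme that splits C3, the central component. Factor B supplies the protease of the alternative pathway, which amplifies C3 cleavage, and C1 inhibitor blocks C1r and C1s. The liver makes most plasma complement, macrophages are the best known source of C1q, and connective tissue fibroblasts make several of the early components locally.

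The 9 genes described here were listed by name, out of 32285 genes in each matrix. They were the C1q chains (C1qa, C1qb, C1qc), the C1 proteases (C1ra, C1s1), the cleaved components (C4b, C3), factor B (Cfb) and C1 inhibitor (Serping1). Each was measured in both libraries and in groups of cells drawn by the unique molecular identifiers (UMIs) of marker genes, none of which is a complement gene. All 9 had UMIs in both libraries.

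The study asked how muscle stem cells (MuSCs) respond to a growth stimulus. Droplet-based 3′ single-cell RNA-seq was run on cells sorted from the plantaris, a calf muscle, of 26-week-old Pax7rtTA; TRE-H2B-GFP mice that had taken 2.0 mg/ml doxycycline. In these mice the Pax7 locus drives a doxycycline-dependent activator, so histone-bound GFP marks the nuclei of cells with an active Pax7 locus. One library came from sham-operated mice and 1 from mice given 5 days of mechanical overload (MOV), made by cutting away part of the neighbouring calf muscles, and both groups carried the same transgenes and doxycycline. By the study's methods, cells were taken for surface VCAM and against CD31, CD45 and SCA1, from several animals for each library, whereas the sample labels speak of a single mouse and the series description of sorting by GFP signal. There was thus 1 library for each condition and no replicate: intervals below are exact 95% limits that cover counting error only, and no p-value is given. A difference between the libraries could not be told apart from a difference between animals, preparations or runs.

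The sham matrix held 1100 cell barcodes and 7302661 UMIs, and the MOV matrix 3854 barcodes and 88498487 UMIs. After filters 734 sham and 2950 MOV barcodes were kept, with a median of 5346 and 22129.5 UMIs. The series description calls the sorted cells MuSCs, but most kept barcodes of each library were not called MuSCs, with myocytes counted apart. In sham, 504 barcodes were droplets rich in muscle fibre transcripts, and 101 were MuSCs. The MOV library held 1343 MuSCs, 185 myocytes (cells with Myog and fusion genes), 538 cells of a Pdgfra group, 179 tenocyte-like cells, 70 myeloid-like cells, 72 Schwann-like cells, 56 vascular cells, 37 fibre droplets, 76 cells with markers of more than 1 lineage and 394 without a call. The corresponding sham counts were 1 myocyte, 35 Pdgfra-group, 20 tenocyte-like, 2 myeloid-like, 7 Schwann-like, 10 vascular, 7 mixed and 47 uncalled. There were 44 barcodes present in both matrices, and the shallower copy held a median of 2.11% of the UMIs of the deeper one, so these copies were removed.

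Levels are given as CPM, the UMIs of a gene summed over a group for every 1000000 UMIs of that group, and levels of different genes are not ranked against each other. The MuSC group was further divided by markers into quiescence-marker cells (59 sham, 167 MOV), cycling cells (6 and 532), matrix-marker cells (0 and 102) and the remainder (36 and 542). Interferon markers were called separately (21 and 114 MuSCs). These states are ranges on marker scores and not cell types. In the MOV library 200 MuSCs lay within 25% of the limit of the quiescence-marker call and 56 within 25% of that of the interferon call. For the Pdgfra list, 33 sham and 167 MOV barcodes lay that close to the limit.

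The members lie on 4 mouse chromosomes (GENCODE vM21, GRCm38). The C1q chains form a cluster on the minus strand of chromosome 4, with C1qb at chr4:136880129-136886187, C1qc at chr4:136889804-136893065 and C1qa at chr4:136895917-136898803. C1ra (chr6:124512405-124523443, plus strand) and C1s1 (chr6:124530345-124542359, minus strand) converge, with 6901 bases between their 3′ ends. On the minus strand of chromosome 17, C4b lies at chr17:34728380-34743882, Cfb at chr17:34856374-34862518 and C3 apart from them at chr17:57203970-57228136. Serping1 lies alone at chr2:84765387-84775444 on the minus strand. C2, the gene of the related classical pathway protease, ends 85 bases upstream of Cfb.

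The bases upstream of annotated starts are shown for C3, C1s1, C1qb and C1qc, members that carry the contrast between cell groups. C3 was highest in the Pdgfra group and tenocyte-like cells, C1s1 in the Pdgfra group, and C1qb and C1qc in myeloid-like cells. The bases were read from the RefSeq promoter table (GRCm38.p6), which held windows for 5 of the 9 members (C1qb, C1qc, C1ra, C1s1 and C3). Each is written 5′ to 3′ on the strand of the gene and ends before the first base that either annotation places in an exon. For C3 this is chr17:57228137-57228386, for C1s1 chr6:124542360-124542609, for C1qb chr4:136886201-136886450 and for C1qc chr4:136893066-136893164.
C3: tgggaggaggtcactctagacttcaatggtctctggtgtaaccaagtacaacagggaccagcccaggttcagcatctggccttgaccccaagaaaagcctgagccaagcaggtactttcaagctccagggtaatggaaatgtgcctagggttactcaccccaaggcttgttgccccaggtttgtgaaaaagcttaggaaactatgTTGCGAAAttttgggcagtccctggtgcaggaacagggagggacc
C1s1: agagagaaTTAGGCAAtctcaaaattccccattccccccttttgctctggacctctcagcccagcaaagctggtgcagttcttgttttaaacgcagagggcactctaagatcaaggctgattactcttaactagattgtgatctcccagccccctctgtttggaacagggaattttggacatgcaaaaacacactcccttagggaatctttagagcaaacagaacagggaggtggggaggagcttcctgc
C1qb: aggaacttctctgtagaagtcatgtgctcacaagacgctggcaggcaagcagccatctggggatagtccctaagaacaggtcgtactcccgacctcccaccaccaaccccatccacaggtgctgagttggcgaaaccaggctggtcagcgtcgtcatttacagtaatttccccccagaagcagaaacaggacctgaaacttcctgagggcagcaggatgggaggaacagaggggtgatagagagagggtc
C1qc: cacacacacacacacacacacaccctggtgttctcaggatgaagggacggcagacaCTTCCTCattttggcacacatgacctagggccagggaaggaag
Capitals mark matches to 4 motifs searched on both strands: TTCNNNGAA (a STAT-type site), the interferon-stimulated response core (a pair of GAAA with 2 bases between), TTGCNNAA (a C/EBP type) and GAGGAAG (an ETS type). C3 held 1 match to TTGCNNAA, its first base being base 206 of the window, and C1s1 held 1 at base 9 on the opposite strand. The C1qc stretch held 1 match to GAGGAAG on the opposite strand, and no motif was matched in the C1qb window. Among 32851 promoter windows of 250 bases, 9.56% held TTGCNNAA, 10.6% GAGGAAG, 7.02% TTCNNNGAA and 2.98% the interferon-stimulated response core. A match is a description of letters and not a measured site.

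The C1q chains were myeloid transcripts in both libraries. C1qa stood at 3862 CPM in the 2 sham myeloid-like cells and at 2845 CPM in the 70 MOV ones. C1qb stood at 4697 and 3033 CPM, and C1qc at 2958 and 1644 CPM. Outside the myeloid-like and mixed cells, the sham library held a single C1qa UMI, in a fibre droplet, and a single C1qb UMI, in an uncalled cell. In the MOV library every other group gave a low C1q level, from 0.908 CPM (C1qc, myocytes) to 14.2 CPM (C1qc, fibre droplets, 3 UMIs). The sort selected against CD45, and Ptprc, which encodes CD45, stood at 329 CPM in the MOV myeloid-like cells.

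**Figure D1:**
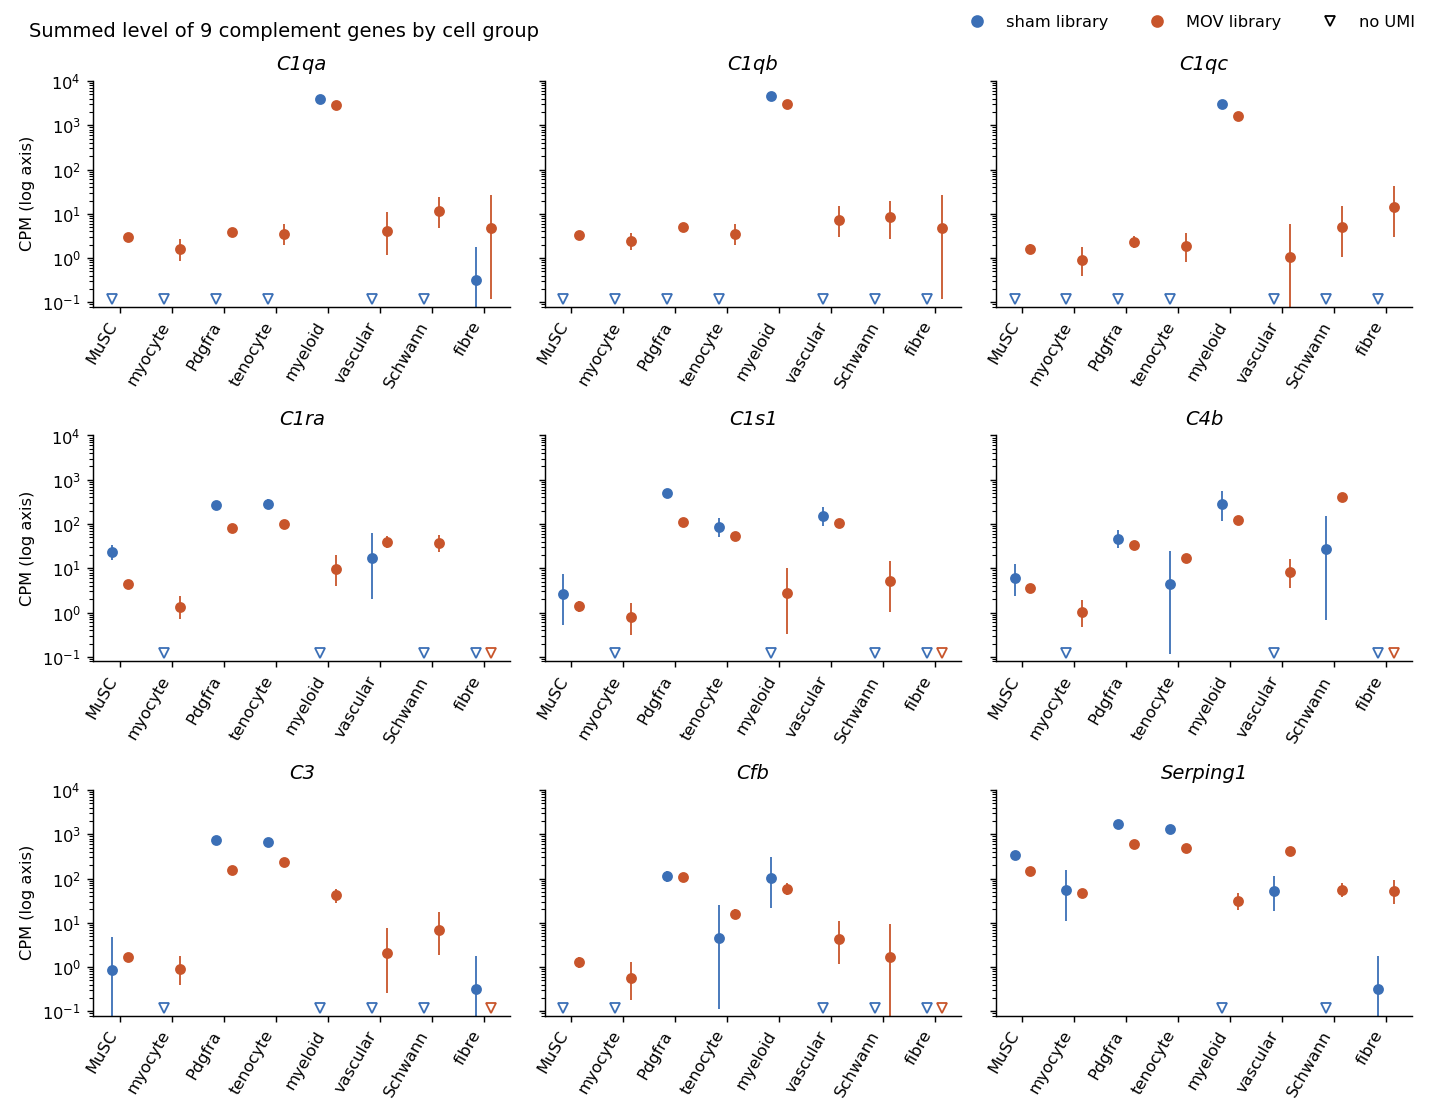
Summed level of each complement gene (CPM, log axis) in 8 cell groups of the sham library (blue) and MOV library (orange), with exact 95% counting intervals; open triangles mark groups without a UMI. The C1q chains stand at 1644 CPM or above in the myeloid group and at 14.2 CPM or below in the other groups drawn, whereas C1ra, C1s1, C3 and Serping1 have their sham points above their MOV points in the Pdgfra and tenocyte groups.

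C1q at this level in MuSCs was close to what the myeloid markers themselves showed there. In MOV MuSCs C1qa was at 0.103% of its myeloid level (0.0846% to 0.124%), C1qb at 0.11% (0.0916% to 0.132%) and C1qc at 0.1% (0.0766% to 0.129%). The 8 myeloid markers ranged in the same cells from 0.0391% for Ptprc to 0.226% for Cd68, with Lyz2, the most abundant of them, at 0.127%. The C1q shares thus lay inside the range of the markers, and the chains kept about the ratio to each other that they had in myeloid-like cells. After thinning to 2000 UMIs per cell, 0.299% of 1340 MOV MuSCs had a C1qa UMI against 75.9% of 58 myeloid-like cells (7.97% and 77.1% without thinning, at median depths of 22231 and 8698 UMIs). C1q levels this low are not read as expression. Cells with markers of more than 1 lineage held 37.7% of the C1qa UMIs of the MOV library.

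**Figure D2:**
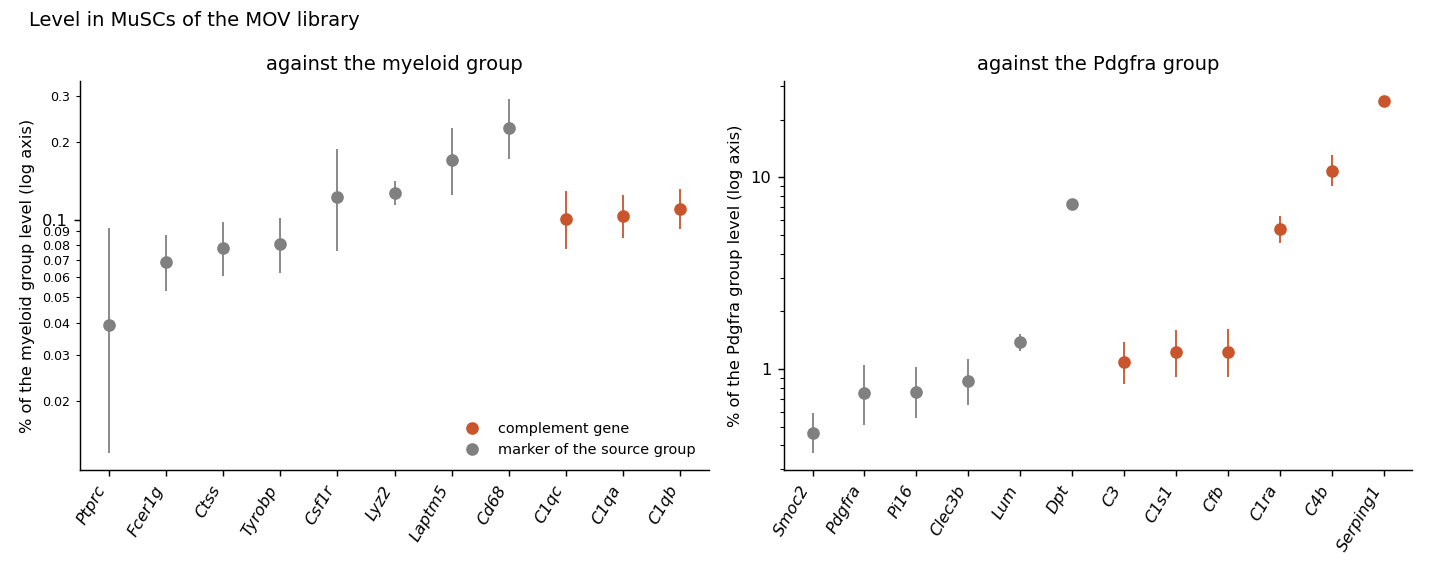
Level in MuSCs of the MOV library as a percentage (log axis) of the level in the myeloid group (left) or the Pdgfra group (right), with exact 95% intervals, for complement genes (orange) and markers of the source group (grey). The C1q chains lie among the myeloid markers, and C3, C1s1 and Cfb between Clec3b and Lum. C1ra, C4b and Serping1 stand at 5.39%, 10.8% and 24.9%.

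The proteases, the later components and C1 inhibitor were higher in the Pdgfra group, the cells that carry markers of fibro-adipogenic progenitors, than in MuSCs. Over both libraries 6 of 9 members were at least 2-fold higher there than in MuSCs, against 19.5% of the 13960 genes with at least 20 UMIs over the groups compared. C3 stood at 738.4 CPM in the sham and 153.5 CPM in the MOV Pdgfra group, and at 0.856 and 1.67 CPM in MuSCs. C1s1 stood at 490.6 and 113.6 CPM in the Pdgfra group, and at 2.57 and 1.39 CPM in MuSCs. Both genes were thus far lower in MuSCs in each library, with C3 at 100.6-fold (log2 6.65, 6.30 to 7.03) and C1s1 at 85.4-fold (log2 6.42, 6.04 to 6.82) the MuSC level in the Pdgfra group over both. Cfb was 83.6-fold higher (log2 6.39), with 111.5 CPM in sham and 106.3 CPM in MOV Pdgfra-group cells and no UMI in sham MuSCs.

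C1ra, C4b and Serping1 differed less between stroma and MuSCs. C1ra stood at 267.6 and 81.1 CPM in the sham and MOV Pdgfra group against 23.1 and 4.37 CPM in MuSCs, 17.3-fold over both (log2 4.11, 3.90 to 4.33). C4b stood at 47.1 and 33.7 CPM against 5.99 and 3.65 CPM, 9.12-fold over both (log2 3.19, 2.93 to 3.46). Serping1 stood at 1682 and 607.1 CPM against 345.7 and 151.3 CPM, 4.01-fold over both (log2 2.00, 1.96 to 2.05). Of the members at least 2-fold higher in the Pdgfra group, Serping1 was the one whose MuSC level came nearest to the level there.

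The low levels in MuSCs were of 2 kinds when set beside the markers of the Pdgfra group. In MOV MuSCs, C3 was at 1.09% (0.838% to 1.39%) of the Pdgfra-group level, C1s1 at 1.22% (0.915% to 1.6%) and Cfb at 1.23% (0.916% to 1.63%). Lum, a small proteoglycan of the stroma, was at 1.38% there, and Pdgfra itself at 0.748%. Smoc2 was at 0.467% (0.367% to 0.588%), Pi16 at 0.763% (0.555% to 1.02%) and Clec3b at 0.866% (0.653% to 1.13%). C3, C1s1 and Cfb thus lay above Smoc2, Pdgfra, Pi16 and Clec3b, and below Lum and Dpt. C4b at 10.8% (8.98% to 13%) and Serping1 at 24.9% (24.1% to 25.7%) lay above all 6 markers. C1ra at 5.39% (4.57% to 6.32%) lay above 5 of them and below Dpt, at 7.29%, which in quiescence-marker MuSCs stood at 31.1% of the Pdgfra-group level. The 3 genes near Lum, like the C1q chains, enter the counts of members within MuSCs below, but their levels there are not read as expression.

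In myeloid-like cells 6 of 9 members were at least 2-fold above MuSCs, against 20.1% of 11632 genes. Besides the C1q chains these were C4b, Cfb and C3, for which the MOV myeloid-like cells held 123, 59.4 and 41.5 CPM. The 2 sham cells held 8 C4b UMIs, 3 of Cfb and none of C3. Serping1 went the other way, at 30.4 CPM in MOV myeloid-like cells, 5.37-fold below MuSCs over both libraries (log2 -2.42, -3.10 to -1.82). In the same MOV cells the 6 Pdgfra-group markers summed to 58.1 CPM, with Clec3b at 0, against 1989 CPM in the Pdgfra group, and their part in these levels was not tested.

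Tenocyte-like cells, called by Tnmd and at least 1 other tendon gene, held C3, C1ra and Serping1 at levels near those of the Pdgfra group and little Cfb. None of 9 members was at least 2-fold higher than in the Pdgfra group (5.25% of 12599 genes were), and 3 of 9 were at least 2-fold lower (10.6% of genes). Cfb stood at 4.53 CPM in sham and 15.7 CPM in MOV tenocyte-like cells, 7.01-fold below the Pdgfra group over both (log2 -2.81, -3.18 to -2.46). C1s1 stood at 86 and 52.4 CPM, 2.25-fold lower, and C4b at 4.53 and 16.9 CPM, 2.08-fold lower. For C4b the difference was at the limit of the 2-fold rule, being 1.99-fold within the MOV library. C3 was 651.7 CPM in sham and 241.2 CPM in MOV tenocyte-like cells, 1.58-fold above the Pdgfra group over both libraries and 1.13-fold below it in sham alone.

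C4b reached its highest MOV level outside the stroma. In the 72 MOV Schwann-like cells, the glia of peripheral nerve, it stood at 417.5 CPM (367.1 to 472.8), which was 12.4-fold the MOV Pdgfra-group level (log2 3.63, 3.42 to 3.85) and 3.39-fold that of the MOV myeloid-like cells (log2 1.76, 1.41 to 2.13). The median over all genes was 0.36 on the log2 scale in both comparisons. At 2000 UMIs, 47.1% of the Schwann-like cells had a C4b UMI, against 5.67% of the Pdgfra group and 0.575% of myocytes. The unthinned shares read 66.7%, 33.1% and 4.86%. Median depth in these groups was 7557, 34468 and 43581 UMIs. Interferon markers summed to 1850 CPM in the MOV Schwann-like cells and to 553 CPM in the MOV Pdgfra group. They summed to 1613 CPM in the MOV vascular cells, where C4b stood at 8.41 CPM. Myeloid markers summed to 1119 CPM in the MOV Schwann-like cells, with Ptprc, Tyrobp and Csf1r at 0. The part of either set of markers in the result was not tested. The 7 sham Schwann-like cells held 1 C4b UMI in 36835, or 27.2 CPM (0.687 to 151.3).

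The vascular group, called by endothelial or mural markers, held C1s1 and little C3. Mural markers, of the cells that wrap small vessels, summed to 6063 CPM in sham and 4411 CPM in MOV, and endothelial markers to 3868 and 1280 CPM. C1s1 stood at 153.7 CPM in the 10 sham cells and 108.3 CPM in the 56 MOV cells, the latter 78-fold the MuSC level (log2 6.29, 5.80 to 6.79). C3 had no UMI in the sham and 2 UMIs in the MOV vascular cells. Muscle fibre droplets of the sham library held 1 UMI each of C1qa, C3 and Serping1 in 3108838 UMIs, and none of the other members. The 37 MOV fibre droplets held 11 Serping1 UMIs in 210962, or 52.1 CPM (26 to 93.3), with 1, 1 and 3 UMIs of C1qa, C1qb and C1qc.

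Complement transcripts were uneven from cell to cell within the Pdgfra group. When 499 MOV cells were thinned to 10000 UMIs, C3 was found in 38.1% of them, whereas an even spread of the same UMIs would have given 85.2%. The 10% of cells with the most C3 carried 68.9% of its UMIs, against 37.8% for Lum and 36% for Serping1. For C4b this share was 80.7% and for Cfb 61.2%, and for C1ra and C1s1 it was 45.3% and 42%, nearer to that of Serping1. The share also rises as the mean count falls. Mean UMIs per cell were 0.427 for C4b, 0.924 for C1ra, 1.16 for Cfb, 1.36 for C1s1 and 1.91 for C3. They were 7.23 for Serping1 and 8.53 for Lum. C4b was found in 18% of cells where an even spread would give 34.7%, and Cfb in 36.3% against 68.6%. For C1ra these values were 48.7% and 60.3%, and for C1s1 57.1% and 74.3%. Single cells stood out, with 150 C3 UMIs in 1 cell of the Pdgfra group and 169 Cfb UMIs in 1 uncalled MOV cell of 10114 UMIs, which held 6.77% of the Cfb UMIs of the library.

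The levels differed along 2 genes that divide fibroblasts, a split chosen after the values were seen and one whose UMI limit depends on depth. Pi16 marks a resident, adventitial kind of fibroblast and Lrrc15 a matrix-producing kind. In the MOV Pdgfra group, 146 cells had at least 3 UMIs of Pi16 and fewer of Lrrc15, 149 the reverse, 14 both and 229 neither, and the median depth was 32470 UMIs in the Pi16 cells and 42901 in the Lrrc15 cells. C3 stood at 347.4 CPM (331.3 to 364.1) in the Pi16 cells and at 19.4 CPM (16.2 to 23.1) in the Lrrc15 cells. C4b stood at 75.3 and 8.07 CPM, and Serping1 at 1001 and 250.8 CPM. Cfb differed least, at 156.1 and 59.6 CPM, and all 6 members were higher in the Pi16 cells of the MOV library. In the sham Pdgfra group only 1 cell had Lrrc15 at this limit. Against 24 sham cells with neither gene, 10 Pi16 cells held more C3 (1250 against 476.6 CPM) and Cfb (157.8 against 61.96 CPM). They held less Serping1 (1521 against 2088 CPM) and C4b (12.62 against 76.26 CPM). C1ra and C1s1 were slightly lower in them, and only the intervals of C3 and Serping1 were apart.

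**Figure D3:**
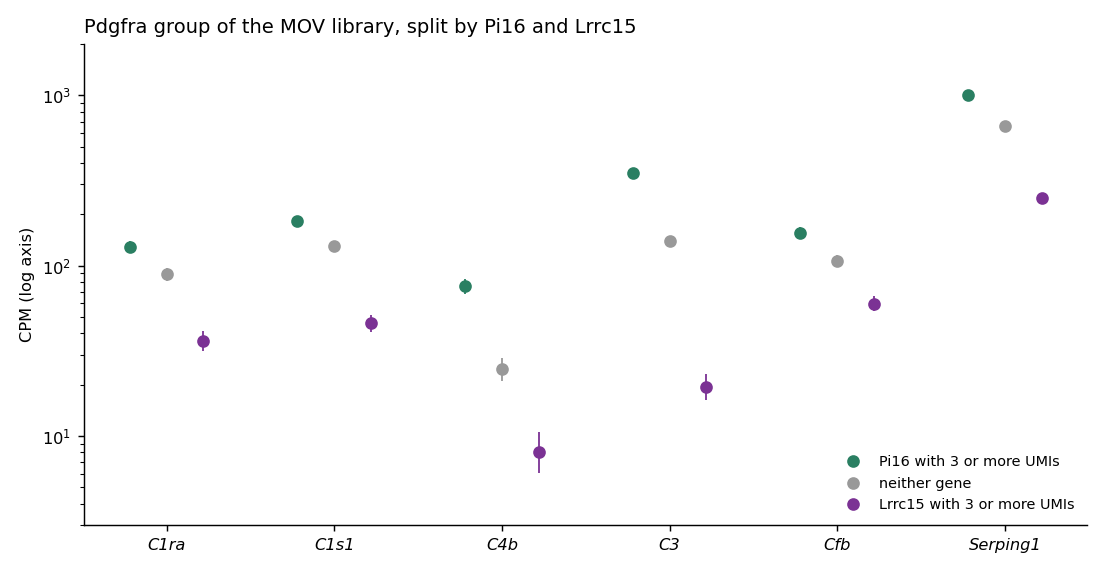
Level (CPM, log axis) of 6 complement genes in the MOV Pdgfra group, in cells with 3 or more UMIs of Pi16 (green), of Lrrc15 (purple) or of neither (grey), with exact 95% counting intervals. For each gene the Pi16 cells are highest and the Lrrc15 cells lowest, and C3 shows the widest gap, from 347.4 to 19.4 CPM.

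MOV cells of the Pdgfra group held less of most members than sham cells. Of the 6 members that could be compared, 4 were at least 2-fold lower in MOV, against 19.8% of 11015 genes, and none of 6 was at least 2-fold higher, against 11.9%. C3 was 4.81-fold lower (log2 -2.27, -2.44 to -2.09), C1s1 4.32-fold (log2 -2.11, -2.32 to -1.89), C1ra 3.3-fold (log2 -1.72, -2.0 to -1.43) and Serping1 2.77-fold (log2 -1.47, -1.58 to -1.36). The median over all genes was -0.13 on the same scale. Cfb gave a log2 ratio of -0.07 (-0.49 to 0.39) and C4b one of -0.48 (-1.14 to 0.26), and both intervals held equality. The C1q chains had no sham UMI and allowed no ratio.

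The makeup of the group moved with this difference. Of the MOV cells 50.7% also passed the limits of the tenocyte list, against 8.57% of the 35 sham cells, and the summed Pdgfra-group markers stood at 1989 and 5949 CPM. Without these cells the log2 ratio was -1.67 for C3, -1.74 for C1s1, -1.46 for C1ra and -1.09 for Serping1, and the same 4 members stayed at least 2-fold lower. Among cells with Pi16 only, C3 stood at 1250 CPM (1082 to 1436) in 10 sham cells and 347.4 CPM in the 146 MOV cells, and Serping1 at 1521 and 1001 CPM. C1ra stood at 290.3 and 128.2 CPM in these cells, and C1s1 at 486 and 181.8 CPM. C4b went the other way, at 12.62 CPM (1.529 to 45.6) on 2 sham UMIs and 75.35 CPM (67.94 to 83.34) in MOV. Cfb stood at 157.8 and 156.1 CPM. Sham cells were the shallower ones (median 10357 UMIs against 34468), and the part of makeup in the remaining difference was not tested.

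Tenocyte-like cells, 20 in sham and 179 in MOV, were compared in the same way, with the median gene at -0.08 on the log2 scale. C3 was 2.7-fold lower in MOV (log2 -1.43, -1.69 to -1.17), C1ra 2.92-fold (log2 -1.55, -1.93 to -1.14) and Serping1 2.64-fold (log2 -1.40, -1.58 to -1.22). For C1s1 the interval of the log2 ratio reached from -1.39 to 0.04. C4b and Cfb had 1 sham UMI each.

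**Figure D4:**
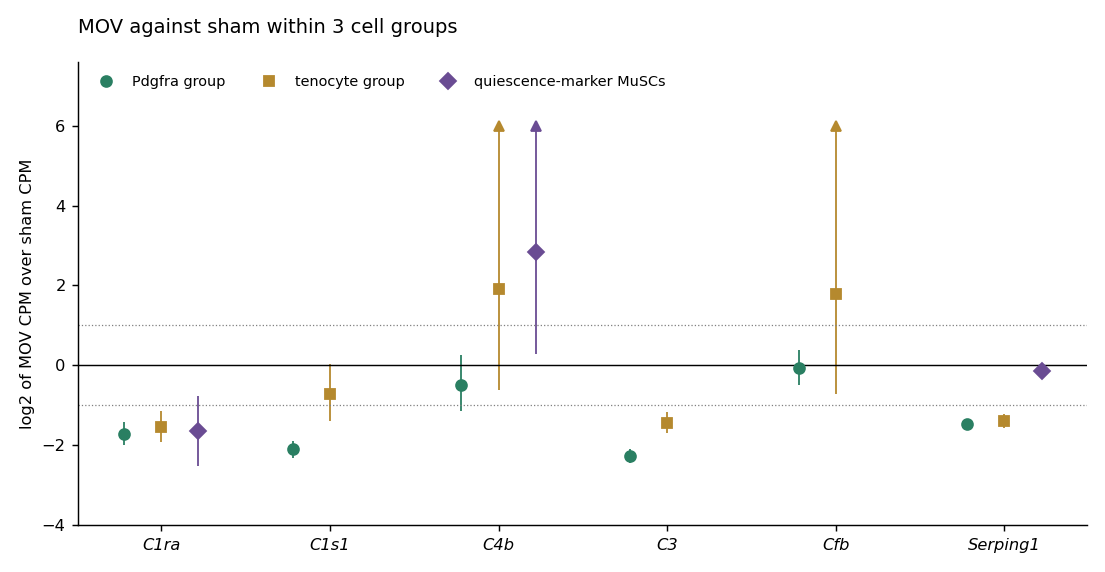
log2 ratio of MOV to sham level for 6 complement genes in the Pdgfra group (circles), tenocyte-like cells (squares) and quiescence-marker MuSCs (diamonds), with exact 95% counting intervals; dotted lines mark 2-fold, arrowheads intervals that run past the axis, and pairs with under 20 UMIs or no sham UMI are left out. C1ra lies below 0 in all 3 groups, and Serping1 lies at -1.47, -1.40 and -0.14.

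Within MuSCs, Serping1 differed by state. In the MOV library it stood at 403.2 CPM (379 to 428.7) in quiescence-marker cells, 259.7 CPM in matrix-marker cells, 212 CPM in the remaining cells and 80.2 CPM (76.6 to 84) in cycling cells. Myocytes held 46.6 CPM (42.2 to 51.4), and the intervals of neighbours in this order did not overlap. At 2000 UMIs, 55.4% of the quiescence-marker cells had a Serping1 UMI and 21.5% of the cycling cells (97% and 79.7% without thinning, at median depths of 13951 and 35592 UMIs). The share was 13.2% in myocytes, 5.17% in 58 MOV myeloid-like cells (17.1% without thinning) and 1 of 18 in MOV fibre droplets, while 0 of 358 sham fibre droplets had a UMI, which allows a share of up to 0.838%. The MOV fibre droplets, at 52.1 CPM (26 to 93.3), overlapped the myocytes in level.

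Counting all members, 5 of 9 were at least 2-fold higher in quiescence-marker than in cycling MuSCs, against 10.5% of 11995 genes. Serping1 was 5.03-fold higher (log2 2.33, 2.22 to 2.44). C4b was 7.43-fold higher (log2 2.89, 2.18 to 3.60) on 33 and 39 UMIs, and C1ra 4.1-fold (log2 2.04, 1.35 to 2.69) on 29 and 62 UMIs. C1s1 and C1qc passed the fold on 12 and 8 quiescence-marker UMIs, C1qc with an interval that held equality (log2 -0.20 to 2.28). In quiescence-marker cells C1s1 stood at 4.14% (2.14% to 7.25%) of its Pdgfra-group level, where the 6 markers ranged from 0.346% for Pdgfra through 2.12% for Clec3b (0.97% to 4.04%) to 31.1% for Dpt.

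Myocytes, the cells that have left the stem cell state to fuse, were compared with all MuSCs. Of 9 members 4 were at least 2-fold below MuSCs, against 12.3% of 13180 genes. Serping1 was 3.24-fold lower (log2 -1.70, -1.85 to -1.55), C4b 3.58-fold (log2 -1.84, -3.00 to -0.87) and C1ra 3.21-fold (log2 -1.68, -2.66 to -0.84). Cfb was the fourth, on 5 myocyte UMIs and with an interval that held equality. Against cycling MuSCs alone, Serping1 was 1.72-fold lower in myocytes (log2 -0.78, -0.94 to -0.63) and C1ra 2.04-fold (log2 -1.02, -2.05 to -0.12), while for C4b the interval held equality (log2 -0.77, -2.0 to 0.30).

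MuSCs with interferon markers (Isg15, Ifit1, Ifit3, Iigp1, Rsad2, Rtp4, Usp18) were compared with the other MuSCs. In MOV MuSCs 5 of 9 members were at least 2-fold higher with these markers than without, against 5.49% of 12428 genes. Serping1 stood at 324.1 CPM in the 114 cells with them and 141.4 CPM in the 1229 without, 2.29-fold (log2 1.20, 1.08 to 1.31). C1ra stood at 15.6 and 3.73 CPM, 4.18-fold (log2 2.06, 1.47 to 2.62), and C4b at 8.98 and 3.34 CPM, 2.68-fold (log2 1.42, 0.64 to 2.13). C1qc and C1s1 were the others, on 9 and 6 UMIs, C1s1 with an interval that held equality (log2 -0.40 to 2.35), while C1qa and Cfb were at least 2-fold lower on 3 and 1 UMIs with intervals that held equality. Median depth was 16476 UMIs with the markers and 23294 without.

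For Serping1 the difference was present within each of the larger MOV states. It stood at 238.2 CPM (208.9 to 270.4) in the 41 cycling cells with interferon markers and at 72.8 CPM (69.2 to 76.5) in the 491 without. C1ra stood there at 15.9 CPM (9.11 to 25.9) and 2.15 CPM (1.58 to 2.87). In quiescence-marker cells Serping1 stood at 571.8 CPM with and 382.2 CPM without interferon markers, and C1ra at 35.3 and 8.38 CPM. In the remaining, uncalled state C1ra stood at 8.7 CPM (3.5 to 17.9) with and 5.7 CPM (4.38 to 7.29) without them. C4b stood at 7.97 and 1.45 CPM in cycling cells and at 4.97 and 5.34 CPM in the uncalled state. In the sham library, Serping1 was 1.48-fold higher in the 21 MuSCs with interferon markers (log2 0.57, 0.26 to 0.87), and C4b had 6 UMIs in them against 1 in the other 80. Within sham quiescence-marker cells Serping1 stood at 421.2 CPM in 13 cells with the markers and 455.5 CPM in 46 without, with overlapping intervals.

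**Figure D5:**
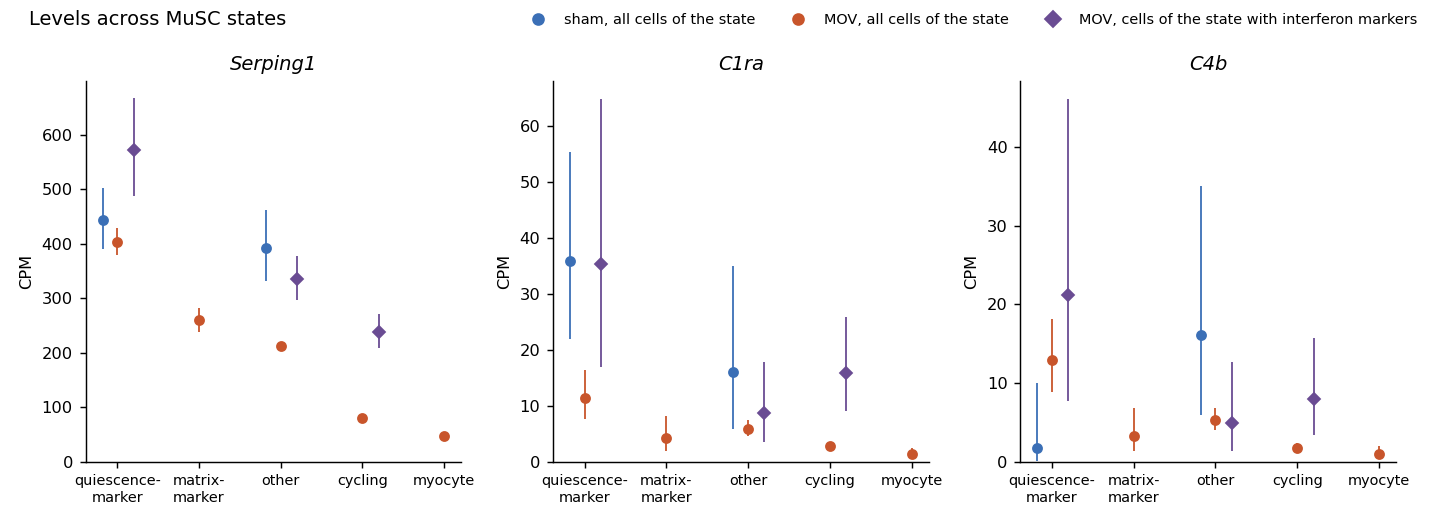
Level (CPM) of Serping1, C1ra and C4b across MuSC states and myocytes in the sham library (blue) and MOV library (orange), and in MOV cells of each state with interferon markers (purple), with exact 95% counting intervals; only sets of at least 20 cells are drawn. Serping1 declines from 403.2 CPM in quiescence-marker cells to 46.6 CPM in myocytes, and the purple points lie above the orange ones for Serping1 in all 3 states.

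Between conditions, the quiescence-marker state was the MuSC state with the most sham cells. Serping1 stood at 443.6 CPM (390 to 502.6) in the 59 sham cells and 403.2 CPM in the 167 MOV cells, a log2 ratio of -0.14 (-0.34 to 0.07) where the median gene was at 0.19. Its share of cells at 2000 UMIs was 57.6% (44.1% to 70.4%) and 55.4% (47.5% to 63.1%). C1ra stood at 35.9 and 11.4 CPM, 3.16-fold lower in MOV (log2 -1.66, -2.53 to -0.76) on 20 and 29 UMIs. C4b stood at 1.8 and 12.9 CPM, from 1 and 33 UMIs, with an interval of the log2 ratio from 0.27 to 8.20. It was no longer counted when the cell with the most C4b UMIs was left out of each group. The MOV cell left out held 6 of the 33 UMIs. The sham cell held the only sham UMI, and a group at 0 was set to 3 counts. The outcome depended on that rule, so it does not show that the C4b difference rests on a single cell. Of these 3 members with 20 or more UMIs, 1 of 3 was at least 2-fold lower (6.28% of 8214 genes) and 1 of 3 at least 2-fold higher (15.8%).

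Over all MuSCs, Serping1 was 2.29-fold lower in MOV (345.7 and 151.3 CPM, log2 -1.19, -1.34 to -1.04) and C1ra 5.29-fold lower (23.1 and 4.37 CPM, log2 -2.40, -2.99 to -1.76). Cycling cells made up 532 of the 1343 MOV MuSCs and 6 of the 101 sham MuSCs, so the share of the state with the lowest Serping1 differed along with it. In the remaining, uncalled MuSC state Serping1 was also lower in MOV, at 212 CPM against 391.8 CPM (log2 -0.89, -1.13 to -0.64).

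Summed over whole libraries, C3 stood at 81.7 CPM in sham and 50.5 CPM in MOV, Serping1 at 269.5 and 262.3 CPM, and C1qa at 37.4 and 44.6 CPM. C4b stood at 9.19 and 16.9 CPM, and Cfb at 11.4 and 30 CPM. The Pdgfra group supplied 68.2% of the C3 and 79.6% of the Cfb of the MOV library from 22.4% of its UMIs, and MuSCs 26.9% of its Serping1 from 46.7%. Fibre droplets took 53.9% of the sham UMIs and 3 UMIs of the members, and both sets of values are relative to all UMIs.

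The level of each member over groups of at least 20 cells was compared with that of every gene with at least 100 UMIs, as a Pearson correlation of log2(CPM + 1) over 16 groups of the 2 libraries. These groups share libraries, so the values are descriptive. The genes most like Serping1 were Gem (r = 0.971), Gfpt2 (0.951) and Itpkc (0.947), and those most like C3 were Dnm1 (0.968), Dpp4 (0.965) and Ccbe1 (0.959). C1qa was most like C1qb (0.994), H2-Ab1 (0.993) and Cd74 (0.98), C1qb like C1qa, Cd74 (0.989) and H2-Ab1 (0.988), and C1qc like Ctss (0.992), Ccl6 (0.986) and C1qa (0.973). Only the MOV myeloid-like group had enough cells to enter, and the C1q chains were low in every other group. Any gene largely confined to that group therefore comes out alike. Ctss is also a marker by which myeloid-like cells were called. For C1ra they were Lamb2 (0.97), Ecm2 (0.953) and Fosb (0.951), and for C1s1 Meox2 (0.957), Podn (0.953) and Ecm2 (0.946). For C4b they were Ptprj (0.934), St6gal1 (0.903) and Wdfy1 (0.898), and for Cfb Cmah (0.953), Tiam1 (0.937) and Ptgs2os2 (0.935). C1ra and C1s1 were alike at 0.884 and C3 and Cfb at 0.822, whereas C1ra and C1qa gave -0.136.

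Other complement genes were taken from a list of 47, of which 26 had at least 20 UMIs in the kept cells and 5 had none. Among them 9 of 17 tested were at least 2-fold higher in the Pdgfra group than in MuSCs (19.5% of all genes), 13 of 18 in myeloid-like cells (20.1%), and 5 of 10 in quiescence-marker over cycling MuSCs (10.5%). With interferon markers 1 of 13 was higher (5.49%), and in myocytes 5 of 14 were lower than in MuSCs (12.3%) and 1 higher (7.53%). In tenocyte-like cells 1 of 14 was higher than in the Pdgfra group (5.25%) and 4 were lower (10.6%). In the Pdgfra group 8 of 12 were at least 2-fold lower in MOV than in sham (19.8%), and 0 of 12 were higher (11.9%). In quiescence-marker MuSCs 1 of 8 was higher in MOV (15.8%) and 0 of 8 lower (6.28%). Genes among the 12 with the most UMIs are described. Of the components, C2 stood at 148.7 CPM in the sham and 19 CPM in the MOV Pdgfra group (log2 -2.97, -3.37 to -2.55). Cfp, which stabilises the alternative pathway enzyme, was a myeloid transcript at 313.8 CPM in MOV.

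Of the receptors, C3ar1, which binds the C3a fragment, stood at 378.8 CPM in MOV myeloid-like cells and at 0.36 CPM in MOV MuSCs. Cd93, a receptor of endothelial and myeloid cells, stood at 235.5 CPM in MOV vascular cells. C1qbp, a mainly mitochondrial protein that can bind C1q, stood at 288.4 CPM in MOV MuSCs and 395.7 CPM in myocytes, and Colec12, a scavenger receptor, at 40.1 CPM in MOV MuSCs and 131.5 CPM in tenocyte-like cells.

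Among soluble regulators, Vtn, which blocks the terminal complex, stood at 42.4 CPM in quiescence-marker and 4.38 CPM in cycling MOV cells, 9.67-fold (log2 3.27, 2.87 to 3.68). Clu, another inhibitor of the terminal complex, stood at 475.2 CPM in sham and 77.3 CPM in MOV tenocyte-like cells.

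Of the membrane regulators, Cd59a, which prevents pore formation, stood at 690.1 CPM in MOV Schwann-like cells against 3.16 CPM in MuSCs. Cd55, which dissociates the C3-cleaving enzymes, stood at 151.1 CPM in the sham and 65.4 CPM in the MOV Pdgfra group. Cr1l, the mouse regulator also known as Crry, was present in all MOV groups, from 9.48 CPM in fibre droplets to 83 CPM in vascular cells.

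Near-identical copies limit some of these counts. C1ra, C1s1 and C4b have the paralogs C1rb, C1s2 and C4a, to which 4, 7 and 10 UMIs were assigned over all kept cells. How reads that match 2 copies were shared is not given in the sources used here, so the counts of these members carry that uncertainty.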

How the data were processed

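Gene-by-cell matrices of UMI counts for both libraries were used as deposited; per the submitters' processing notes the authors made them with Cell Ranger 6.0.0 (mm10), also naming R 4.0.2 and Seurat 4.0.2. The counts are not normalised. Barcodes with 10% or more mitochondrial UMIs were removed (738 sham and 3060 MOV barcodes were below), as were the shallower copies of 44 barcodes found in both matrices and the barcodes most like simulated doublets, in the number a rate growing with the cells recovered gives (4 sham, 73 MOV; Scrublet in scanpy 1.11.5).

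Cells were grouped by marker lists: a list was passed with at least 3 UMIs, 2 genes and 4 UMIs in every 10000 (8 for cycling and interferon, 32 for matrix, 200 for fibre, and Tnmd at 3 UMIs for tenocyte-like cells). These limits were set after marker counts were seen. Cells of more than 1 lineage (myogenic, stromal, vascular, myeloid, Schwann) were set apart as mixed. The Pdgfra and tenocyte lists count as 1 lineage, and cells that passed the tenocyte list without 3 Tnmd UMIs stayed in the Pdgfra group if they passed its list.

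UMIs were summed over groups, and log2 ratios of shares carry exact conditional 95% intervals for counting error (scipy 1.17.1). A gene needed 20 UMIs over both groups and was called past 2-fold, and a group at 0 was set to 3 counts. Shares of cells used 2000 UMIs drawn from each cell and leave out shallower cells, with Clopper-Pearson intervals. With 1 library a condition no test over samples was possible. Scripts were tested on simulated data. TMM (edgeR 4.0.16), DESeq2 1.42.0 size factors, other filters and single libraries were tried as alternatives. Members and marker lists were chosen with earlier results of these data known. All 9 members are named, with the 12 of the 47 other complement genes that had the most UMIs and the 3 genes most like each member. One of these 12 is not reported here. PCR and capture errors are not covered by the intervals.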

Additional observations from a re-analysis of the deposited data

How the results depend on the processing

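No paired analysis was possible because the groups share only 1 replicate number. Of 695 log2 ratios of members recomputed under alternatives, 648 moved by less than their counting interval, 47 moved by more and 0 changed sign past 2-fold. In the sham library alone, 3 members were at least 2-fold higher in myeloid-like cells than in MuSCs, against 6 over both libraries, with 2 sham myeloid-like cells. C4b, Cfb and C3 had under 20 UMIs over these sham groups and were not tested there. In myeloid-like cells and MuSCs, C4b had 8 and 7 sham UMIs, Cfb 3 and 0, and C3 0 and 1. In quiescence-marker MuSCs the 1 member higher in MOV, C4b, became 0 with a 5% mitochondrial limit. The count also became 0 with the top cell of each member left out. That step removed the only sham C4b UMI, so the 3 counts set for a group at 0 were used. The count was 2 with no filter on low counts. Without that filter 22 other complement genes, against 9, were higher in the Pdgfra group than in MuSCs. Serping1 was found in 33.3% of MOV MuSCs at 2000 UMIs and 48.9% at 4000 UMIs. Leaving out Pdgfra-group cells that pass the tenocyte list and keeping the shallower copies of shared barcodes were chosen after seeing the data, and no count of members past 2-fold differed under either. With 1 library a condition, no replicate could be left out, and the 35 sham Pdgfra-group cells and 59 sham quiescence-marker MuSCs limit every comparison of conditions.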
